A study of Mus musculus with 2 samples.

Results

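The mouse genome carries 2 copies of a short miRNA cluster in which a Mir23, a Mir27 and a Mir24 gene follow each other on the same strand. The 6 genes were chosen by name and Ensembl identifier, Mir23a, Mir27a and Mir24-2 on chromosome 8 and Mir23b, Mir27b and Mir24-1 on chromosome 13. Of these 6, 5 were among the 1973 miRNA genes counted, and Mir24-1 was not. The libraries were small RNA libraries of total RNA from skeletal muscle of B6NCrl mice at postnatal day 0, prepared for fragments under 30 bases. A single group of 2 libraries was sequenced, from pup 1 (replicate 1) and pup 2 (replicate 2) of 1 litter. The labels name no treatment or engineered allele and give no sex, so there was no contrast between conditions, and the comparisons below are between the clusters within each pup and between the pups. In bulk tissue, fewer cells of a type and less RNA per cell cannot be told apart.

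A miRNA gene is transcribed into a long precursor, from which a hairpin is cut and trimmed to a mature strand that guides silencing complexes to messenger RNAs. Bases 2 to 8 of the mature strand, the seed, largely decide which messages are bound, so miRNAs with the same seed share many targets. Both clusters are known from endothelium and blood vessel growth. In muscle, miR-27 is known to repress Pax3 in myogenic progenitors and the growth inhibitor myostatin, miR-24 is known to rise during myoblast differentiation, and miR-23a is known to repress the atrophy ligases atrogin-1 and MuRF1.

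The mature sequences show how alike the 2 clusters are, and are given 5′ to 3′ from the RefSeq table for GRCm38.p6, the assembly also called mm10, with the seed in capitals.
miR-23a-3p: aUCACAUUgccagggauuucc
miR-27a-3p: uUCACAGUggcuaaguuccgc
miR-27b-3p: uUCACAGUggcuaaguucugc
miR-24-3p: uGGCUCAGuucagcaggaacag
All 6 genes matched that table by symbol, with 10 different mature names; miR-23b-3p has no mature entry there. The seeds of miR-23a and miR-27 differ only in the base before the last, UCACAUU against UCACAGU, while the miR-24 seed, GGCUCAG, is unrelated. miR-27a-3p and miR-27b-3p share their seed and differ by 1 substitution, C19U, read from miR-27a to miR-27b and counted from the 5′ end. miR-24-3p is the same 22 bases from Mir24-2 and Mir24-1. In the whole table, 97 of 1058 genes with a mature entry (9.17%) have a mature sequence identical to that of another gene.

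For Mir23b the table holds the hairpin, so the Mir23 pair is compared by its hairpins, with their longest shared run in capitals.
Mir23a hairpin: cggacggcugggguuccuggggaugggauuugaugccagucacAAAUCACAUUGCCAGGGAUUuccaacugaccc
Mir23b hairpin: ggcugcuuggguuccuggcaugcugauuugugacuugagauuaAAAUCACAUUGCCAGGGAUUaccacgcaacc
The shared run is 20 bases. It holds the first 18 bases of miR-23a-3p, so the 2 Mir23 genes can be told apart from base 19 on. The Mir27 pair is alike in this respect: its hairpins also share at most 20 bases, and their 3p products have their first 18 bases in common. Aligned end to end, the Mir23 hairpins were identical in 73.8% of columns, the Mir27 hairpins in 61.1% and the Mir24 hairpins in 54.5%.

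The Mir24 hairpins share a longer run, again in capitals, which takes in the whole of miR-24-3p.
Mir24-2 hairpin: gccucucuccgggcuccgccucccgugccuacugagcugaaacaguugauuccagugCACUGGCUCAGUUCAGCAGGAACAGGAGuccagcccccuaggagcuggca
Mir24-1 hairpin: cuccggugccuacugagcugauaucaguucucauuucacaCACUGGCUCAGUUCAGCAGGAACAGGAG
Here the shared run is 28 bases. What separates the genes is the other arm, where the mature products start alike for 16 bases and then part, shown in capitals.
miR-24-2-5p: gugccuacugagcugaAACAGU
miR-24-1-5p: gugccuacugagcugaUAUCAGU
Of the 22-base windows along Mir24-2, 7 of 86 also occur in another hairpin of the table, against 0 of 54 in Mir23a, 0 of 53 in Mir23b, 0 of 66 in Mir27a and 0 of 52 in Mir27b.

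In GENCODE M21 the chromosome 8 genes lie on the plus strand at chr8:84208518-84208592 (Mir23a), chr8:84208672-84208758 (Mir27a) and chr8:84208815-84208921 (Mir24-2), together 404 bases. No protein-coding gene covers them. The last 2 bases of Mir24-2 overlap an exon of the lincRNA Gm26532, and Mir3074-2 lies on the other strand of Mir24-2. The chromosome 13 genes lie at chr13:63300484-63300557 (Mir23b), chr13:63300712-63300784 (Mir27b) and chr13:63301208-63301275 (Mir24-1), together 792 bases, also on the plus strand. They are inside 2010111I01Rik, a protein-coding gene for an aminopeptidase transcribed in the same direction, Mir23b in an intron and Mir27b and Mir24-1 in an exon of at least 1 transcript. Introns of Fancc, a DNA repair gene, run over all 3 on the other strand, and Mir3074-1 lies opposite Mir24-1. The order of the genes is the same in both clusters, but the last gene starts 297 bases after the first on chromosome 8 and 724 bases after it on chromosome 13.

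**Figure D1:**
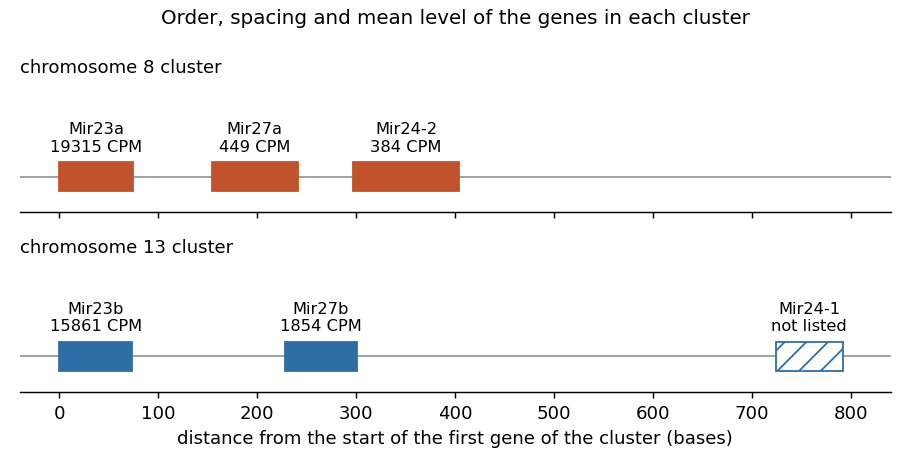
Map of the 2 clusters to scale. The horizontal axis is the distance in bases from the start of the first gene of each cluster. Filled boxes are annotated genes with their mean level in CPM over 2 libraries, and the hatched box is Mir24-1, which had no row of counts. In both clusters the first gene has the highest level of the genes counted.

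Levels are given in CPM, counts on the gene's own strand per 1000000 such counts over all miRNA genes. Replicate 1 held 3754895 of these counts and replicate 2 held 5133949. CPM was not divided by gene length, because a read stands for 1 short RNA whatever the length of the hairpin, and values per base are given where genes are compared. Of the muscle markers, Mir206, the skeletal muscle miRNA, was at 79447 and 87198 CPM. Mir133b had 681 and 865 CPM, Mir499 573 and 626 CPM and Mir208b 560 and 567 CPM. Mir1a-1 and Mir133a-1, whose mature sequences are known to be made at several loci, were at or under 8.96 CPM. Reads with several mapping places are not in these counts, and their part in these low values was not tested. The endothelial marker Mir126a, at 40785 and 36558 CPM, and the smooth muscle and fibroblast markers, at 36926 and 36209 CPM in sum, were also abundant, although Mir143 (30088 ± 137 CPM) and Mir214 (5831 ± 590 CPM) made up most of that sum. Mir145a, Mir199a-2 and Mir199a-1 had means of 567, 74.1 and 7.24 CPM. Replicate 1 stood apart in epithelial markers, 7 genes summing to 5688 CPM against 230 CPM in replicate 2, and in the cartilage gene Mir140, at 6539 against 966 CPM.

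Of all counts, 3.84% fell on the 5 counted genes in replicate 1 and 3.73% in replicate 2. The exact Clopper-Pearson 95% limits were 3.82 to 3.86 and 3.71 to 3.75. Most came from Mir23. The Mir23 pair made up 93.2% and 92.6% of the counts of the 5 genes, the Mir27 pair 5.82% and 6.35%, and Mir24-2 1.02% and 1.01%. These intervals cover counting error within each library only. The reads carried no molecular identifiers in the tables, so copies made by amplification count as separate reads, which the intervals do not allow for.

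Mir23a, the first gene of the chromosome 8 cluster, had 74615 counts (19871 CPM) in replicate 1 and 96305 counts (18758 CPM) in replicate 2. Its level was therefore 19315 ± 787 CPM (SD, n = 2), the rank of 15 among the 1973 genes by mean CPM. Mir23b, its counterpart on chromosome 13, had 59778 counts (15920 CPM) and 81126 counts (15802 CPM), or 15861 ± 83.5 CPM, rank 17. Both Mir23a values lay above both Mir23b values. Across the 311 genes that reached 10 counts in each library, the median level was 178 CPM.

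Mir27b, the Mir27 gene of chromosome 13, had 6720 counts (1790 CPM) and 9844 counts (1917 CPM), or 1854 ± 90.3 CPM, rank 64. Mir27a, its chromosome 8 counterpart, had 1678 counts (447 CPM) and 2320 counts (452 CPM), or 449 ± 3.54 CPM, rank 123. Both Mir27b values lay far above both Mir27a values, the reverse of the order in the Mir23 pair. Mir24-2 had 1473 counts (392 CPM) and 1933 counts (377 CPM), or 384 ± 11.2 CPM, rank 129. It was the lowest of the 5 in both pups, just under Mir27a. The order Mir23a, Mir23b, Mir27b, Mir27a, Mir24-2 was the same in both libraries, and no 2 neighbours in it had overlapping values. It was also the same per base of annotated gene, from 258 ± 10.5 CPM per base for Mir23a, 214 ± 1.13 for Mir23b and 25.4 ± 1.24 for Mir27b to 5.17 ± 0.0407 for Mir27a and 3.59 ± 0.104 for Mir24-2.

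**Figure D2:**
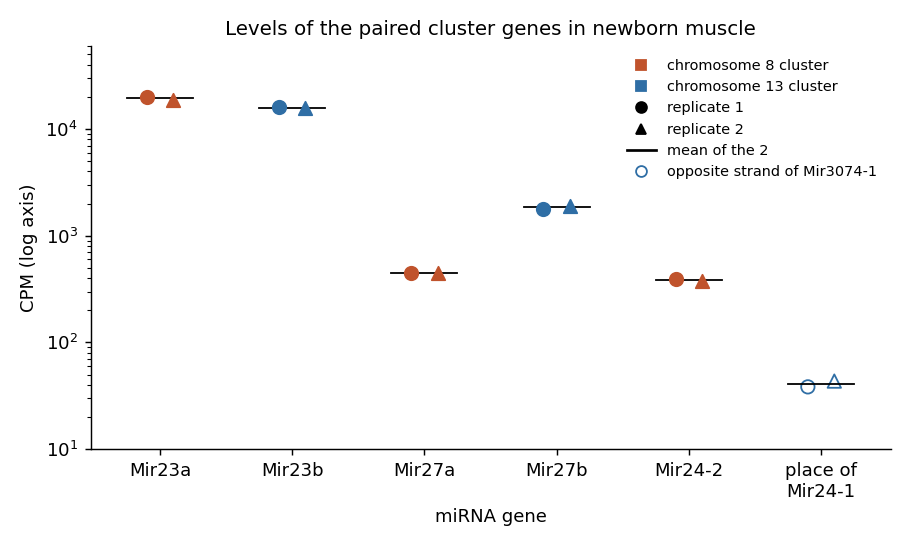
Level of each gene in CPM (log axis) in replicate 1 (circles) and replicate 2 (triangles), with the mean of the 2 as a line. Orange marks chromosome 8 and blue chromosome 13; open symbols are the reads on the opposite strand of Mir3074-1, where Mir24-1 lies. The 2 pups nearly coincide for each gene, Mir23a is above Mir23b, and Mir27a is below Mir27b.

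The comparison of the 2 clusters gene by gene asks whether paralogues were present at like levels in the same pup. Mir23a exceeded Mir23b by 1.25-fold in replicate 1 (95% interval 1.23 to 1.26 from counting error) and by 1.19-fold in replicate 2 (1.18 to 1.20). The mean log2 ratio was 0.28 ± 0.051 (SD, n = 2), several times the spread between the pups. Mir27 went the other way: Mir27b exceeded Mir27a by 4.0-fold (3.8 to 4.2) and by 4.24-fold (4.06 to 4.44). Its mean log2 ratio, chromosome 8 over chromosome 13, was -2.04 ± 0.059. Divided by gene length, the log2 ratios were 0.26 for Mir23 and -2.30 for Mir27. The cluster with the higher Mir23 gene was thus not the one with the higher Mir27 gene, in either pup. With 2 libraries an exact two-sided sign-flip permutation test cannot give a p below 0.5, so no p is given. Reads of these 3p products shorter than 19 bases fit both paralogues, and their part in the 2 ratios was not tested.

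**Figure D3:**
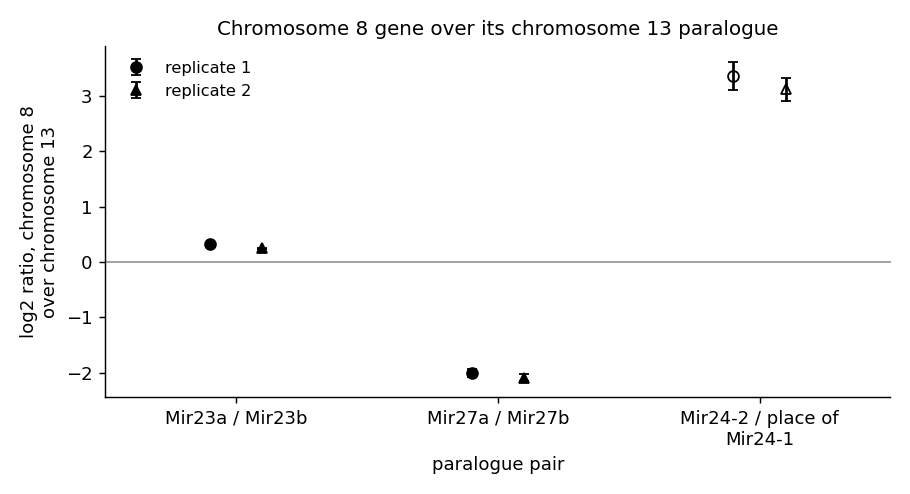
Log2 ratio of each chromosome 8 gene to its chromosome 13 paralogue in replicate 1 (circles) and replicate 2 (triangles), with 95% Clopper-Pearson intervals for counting error as bars. Open symbols use reads on the opposite strand of Mir3074-1 in place of Mir24-1. The Mir23 ratio is above 0 and the Mir27 ratio below 0 in both pups.

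Summed over the 5 counted genes the clusters were close, a result set mostly by the Mir23 pair. Mir24-1 and reads that fit both Mir24 genes are not in these sums, so they do not measure the whole clusters. The 3 chromosome 8 genes summed to 20711 and 19587 CPM, and the 2 counted chromosome 13 genes to 17710 and 17719 CPM. Chromosome 8 held 53.9% (53.6 to 54.2) and 52.5% (52.3 to 52.7) of the counts of the 5 genes. In CPM, the chromosome 13 sum differed by less between the pups than the chromosome 8 sum, 17714 ± 6.80 against 20149 ± 795 CPM. This order rests on scaling to total counts. With the TMM scaling used below, log2 ratios of replicate 2 over replicate 1 were 0.12 for Mir23b and 0.23 for Mir27b. On chromosome 8 they were 0.052 for Mir23a, which made up most of that sum, 0.15 for Mir27a and 0.075 for Mir24-2. With 2 pups either order is a description only.

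Among the counted genes of each cluster the first gene dominated, to a different degree. Mir23a held 95.9% and 95.8% of the counts of the 3 chromosome 8 genes. Mir23b held 89.9% and 89.2% of those of the 2 counted chromosome 13 genes, without Mir24-1. The 2 shares thus have unlike denominators, and reads that fit both Mir24 genes are in neither. Mir23a exceeded Mir27a by 44.5-fold in replicate 1 and 41.5-fold in replicate 2. On chromosome 13 the same step, from Mir23b to Mir27b, was 8.90-fold and 8.24-fold. The 2 sets of values do not overlap. The genes of such a cluster are known to be cut from a common precursor. The files count a gene as a whole and do not part its 5p and 3p products.

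Mir24-1 had no row of its own, but the place it occupies was covered by Mir3074-1, the gene on the minus strand at chr13:63301199-63301283. All 68 bases of Mir24-1 lie within it. The strand opposite Mir3074-1, which is that of Mir24-1, held 144 counts (38.3 CPM) in replicate 1 and 223 counts (43.4 CPM) in replicate 2. If these are credited to Mir24-1, a choice made after the values were seen, Mir24-2 exceeded it by 10.2-fold and by 8.67-fold, and held 91.1% (89.6 to 92.4) and 89.7% (88.3 to 90.9) of their joint counts. The mean log2 ratio was 3.24 ± 0.17 (SD, n = 2). Divided by the annotated lengths of Mir24-2 and Mir24-1 it was 2.58, although the credited counts were taken over the longer Mir3074-1, so 2.58 overstates the change. On its own strand Mir3074-1 had 74 and 84 counts, or 18.03 ± 2.37 CPM. Opposite Mir24-2, where Mir3074-2 lies, both libraries had 0 counts, which allows up to 3 counts, or 0.799 and 0.584 CPM, of reads placed there alone. The mature miR-3074-5p is annotated at both Mir3074 genes, opposite the run that the Mir24 hairpins share. Its complete reads therefore fit both places and are not in these counts. The 0 sets no limit on miR-3074-5p from Mir3074-2, and the 2 Mir3074 genes cannot be compared by these counts.

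Reads of the complete miR-24-3p sequence fit both Mir24 genes, as the hairpins above show. Reads with several mapping places stood on a line apart from the gene counts, 2156563 in replicate 1 and 2971792 in replicate 2, or 30.2% and 29.9% of all reads. How many of them were miR-24 is not given in the tables. The Mir24-2 level is therefore a count of the reads placed at that gene and not of miR-24 as a whole, and its rank under Mir27a holds for those reads only. The ratio of Mir24-2 to the place of Mir24-1, its share and their intervals have the same limit. They do not give how much miR-24 each of the 2 genes made.

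The same arrangement, a gene whose mature sequence is made at more than 1 locus beside a partner with a sequence of its own, exists in other paired clusters, and these give a scale for Mir24-2. On a log2 scale with 0.5 added to each count, Mir24-2 was -5.65 ± 0.017 (SD, n = 2) relative to Mir23a. Mir125b-2 was -6.42 ± 0.068 relative to Mir99a, about 47.3 kb away, and Mir125b-1 was -3.71 ± 0.12 relative to Mir100, 50.5 kb away. Among closer neighbours, Mir29b-1 was -7.04 ± 0.35 relative to Mir29a, on 6 and 5 counts, and Mir29b-2 was -6.10 ± 1.11 relative to Mir29c, on 6 and 3 counts. Mir16-1, however, was only -0.53 ± 0.068 relative to Mir15a, and Mir16-2 -1.39 ± 0.34 relative to Mir15b. Set against Mir23a, Mir24-2 thus lay inside the wide range of these clusters. Set against Mir27a, the other gene of its cluster, it did not. Mir27a was above Mir24-2 by a log2 ratio of only 0.23 ± 0.053 (SD, n = 2, nothing added to the counts), a smaller gap than in any of these clusters. The place of Mir24-2 on this scale therefore depends on the partner chosen. Partners also differ in their own levels, from 74.8 ± 8.25 CPM for Mir29c to 36446 ± 4535 CPM for Mir99a, so the ratios are a description with no test.

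**Figure D4:**
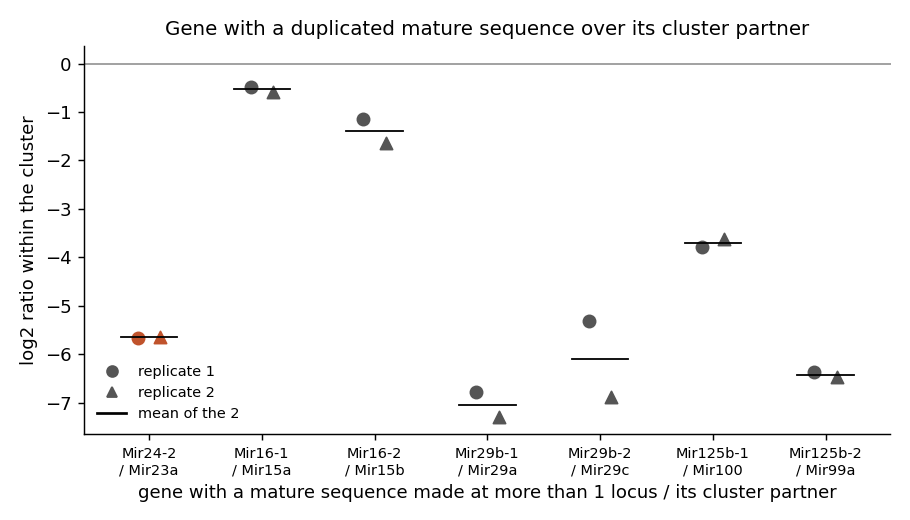
Log2 ratio, with 0.5 added to each count, of a gene whose mature sequence is made at more than 1 locus to its cluster partner, in replicate 1 (circles) and replicate 2 (triangles), with the mean as a line. Mir24-2 over Mir23a, in orange, lies at -5.65, between Mir16-1 at -0.53 and Mir29b-1 at -7.04.

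None of the 5 genes differed by 2-fold between the pups, which for 5 genes is near the share over all genes given below. Ratios between the libraries were scaled with TMM factors and tested gene by gene with an exact two-sided binomial test, adjusted by Benjamini-Hochberg over 373 genes with at least 10 counts. This test compares 2 libraries beyond counting error and not 2 conditions. A gene was called at an adjusted p under 0.05 and at least 2-fold. None of the 5 genes was called (0 of 5 by this binomial test, with 4 of 5 at an unadjusted p under 0.05 and 0 of 5 called with DESeq2 size factors), against 5.09% of all genes tested, of which 0.536% were called toward replicate 2 and 4.56% toward replicate 1. On adjusted p alone 4 of 5 passed, all toward replicate 2 (with total-count scaling 2 of 5, Mir27b toward replicate 2 and Mir23a toward replicate 1), against 49.1% of all genes in either direction, 26.0% toward replicate 2 and 23.1% toward replicate 1.

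The log2 ratio of replicate 2 over replicate 1 was 0.052 for Mir23a (95% interval 0.038 to 0.065 from counting error, adjusted p = 8.4e-13, exact binomial test). It was 0.12 for Mir23b (0.11 to 0.14, adjusted p = 1.4e-56, exact binomial test) and 0.23 for Mir27b (0.19 to 0.28, adjusted p = 3.6e-24, exact binomial test). For Mir27a it was 0.15 (0.060 to 0.24, adjusted p = 0.0028, exact binomial test), and for Mir24-2 0.075 (-0.023 to 0.17, adjusted p = 0.22, exact binomial test), which did not pass. These directions rest on the scaling: with total counts in place of TMM, which lowers every ratio by 0.13, Mir23a was at -0.083, Mir24-2 at -0.059 and Mir23b at -0.011, while Mir27a at 0.016 and Mir27b at 0.099 kept their sign. The median of the 5 genes was 0.12 and that of all genes tested 0.0091 with TMM. In absolute size the median was 0.12 for the 5 genes and 0.32 for all genes tested. The genes tested reach down to 10 counts in total, where counting error is large, so these medians are not of like genes. Among the genes nearest in level, named below, the ratio ran from -0.086 for Mir674 to 0.38 for Mir493. The coefficient of variation of CPM, scaled to total counts and not by TMM, ran from 0.527% for Mir23b to 4.87% for Mir27b. Its order rests on that scaling, since with TMM Mir23b differed more between the pups than Mir23a and Mir24-2 did. The median was 12.4% across the 311 genes that reached 10 counts in each library, many of which have far fewer counts. Epithelial markers, which differed most between the pups, were called in 7 of 7 genes, all toward replicate 1, and their median log2 ratio was -4.13. Mir126a, the endothelial marker, was at -0.023.

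**Figure D5:**
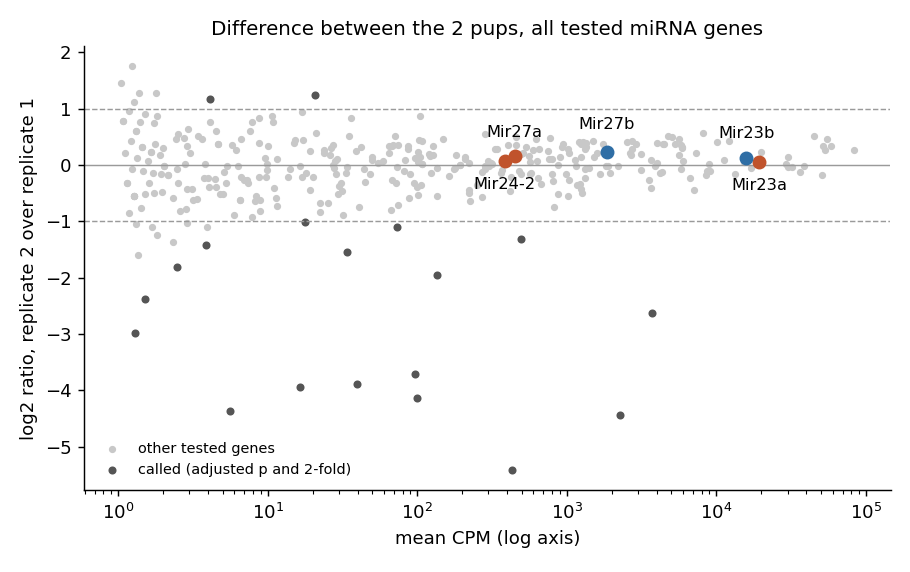
Log2 ratio of replicate 2 over replicate 1 (TMM scaling) against mean CPM (log axis) for the 373 genes tested. Orange and blue points are the chromosome 8 and chromosome 13 genes, dark points are the 19 called genes and dashed lines mark 2-fold. The 5 cluster genes lie between 0.052 and 0.23, and 3 of them fall below 0 with total-count scaling.

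The genes nearest in level over the 2 libraries, by the summed absolute difference of log2(CPM + 1), are given with their distance. Nearest to Mir23a were Mir379, an imprinted miRNA gene on chromosome 12, at 19962 ± 986 CPM (distance 0.18) and Mir26b at 17121 ± 1619 CPM (0.35). Nearest to Mir23b were Mir22 at 15371 ± 658 CPM (0.092) and again Mir26b (0.21). Mir27b was nearest to Mir493 (0.19) and Mir423 (0.25), Mir27a to Mir770 (0.21) and Mir377 (0.21), and Mir24-2 to Mir338 (0.13) and Mir674 (0.16). Mir379, Mir493, Mir770 and Mir377 lie on chromosome 12, and Mir22, Mir423 and Mir338 on chromosome 11. With 2 libraries this likeness is one of level alone.

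Mir128 shares part of the Mir27 seed at an offset, and its mature sequence is shown for that reason, with bases 2 to 8 in capitals.
miR-128-3p: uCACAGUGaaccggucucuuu
Its bases 2 to 7, CACAGU, are bases 3 to 8 of miR-27. Mir128-1 had 557 and 701 CPM and Mir128-2 had 399 and 512 CPM, both below Mir27b. Mir128-1 lay above Mir27a in both pups, while the values of Mir128-2 and Mir27a overlapped. Between the pups, the TMM-scaled log2 ratio (replicate 2 over replicate 1) was 0.47 for Mir128-1 (adjusted p = 7.8e-32, exact binomial test). For Mir128-2 it was 0.49 (adjusted p = 4.9e-26, exact binomial test). On adjusted p alone both thus passed toward replicate 2, as did 26.0% of all genes tested. Neither reached 2-fold, so neither was called, against 5.09% of all genes tested. By the 7-base seed itself, no other mature entry of the table matched miR-23a or the miR-27 pair, and the Mir23b hairpin above holds UCACAUU in its shared run. For miR-24, 4 other names (miR-5124b, miR-6369, miR-6410 and miR-6413) had the same seed.

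Other miRNA genes tied to the processes in which these clusters are known gave a wider spread of levels. In a list of 15 regulators of myoblast growth and differentiation, Mir206 led at 83323 ± 5480 CPM, followed by Mir322, which acts in myoblast cell cycle exit, at 29178 ± 1772 CPM, and Mir214 at 5831 ± 590 CPM. Mir23a and Mir23b would thus stand between Mir322 and Mir214 in that list. None of the 15 was called in either direction, against 5.09% of all genes tested. On adjusted p alone 4 were higher and 3 lower in replicate 2, where the shares over all genes were 26.0% and 23.1%, so these counts are near the background. Their median log2 ratio was -0.072, against 0.0091 over all genes tested. In a list of 11 genes linked to blood vessels, Mir126a led at 38672 ± 2989 CPM, ahead of Mir130a at 9037 ± 1060 CPM and Mir17 at 3681 ± 969 CPM. Mir23a and Mir23b lay between Mir126a and Mir130a. Again none was called, against 5.09% of all genes. On adjusted p alone 2 were higher and 5 lower in replicate 2, against 26.0% and 23.1% of all genes, and the median was -0.023 against 0.0091.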

How the data were processed

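Small RNA from skeletal muscle of 2 littermates was counted over miRNA genes. The deposited values are whole-number read counts per gene, made library by library on mm10 with annotation M4, per the descriptions deposited with them. An aligner or counting program is not given in the sources used here. The tables have 3 columns without names, of which the first equals the sum of the others in every gene, read as either strand, own strand and opposite strand. Own-strand counts were used, and 4 leading lines, which name no gene, stayed out of library sizes; they held 47.4% and 48.4% of reads. Of 1973 identifiers, 1894 matched GENCODE M21, which supplied names and coordinates; bounds in M4 may differ slightly. Sequences are RefSeq's, GRCm38.p6.

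CPM, ratios and shares were computed with Python 3.11.15 and scipy 1.17.1, TMM factors (1.05 and 0.954) with edgeR 4.0.16 and size factors with DESeq2 1.42.0 in R 4.3.3. The pup ratio used 0.5 added to each count. The binomial test was tried on simulated counts with counting error only, the error it assumes. How it behaves with further spread between pups was not tested. edgeR's quasi-likelihood test was not used, since there was 1 group. The planned ratio of Mir24-2 to Mir24-1 could be given only from opposite-strand counts. Members, lists and tests were chosen with earlier results of these data known. Named genes were the members, genes on their other strand, the 2 nearest in level to each member, and up to 3 leading genes of the lists; the remaining paired-cluster genes, the marker genes and the miRNAs with the miR-24 seed were named outside this rule, after their values were seen.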

Additional observations from a re-analysis of the deposited data

Results flagged for a closer look

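Reads outside the main measurement lay on the strand opposite Mir3074-1, at the place of Mir24-1, with 144 counts in replicate 1 (95% Poisson interval 121 to 170) and 223 in replicate 2 (195 to 254). They are given because they lie in a column that the other comparisons do not use, where a count of 0 would allow up to 3 counts.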

How the results depend on the processing

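Divided by annotated gene length, the log2 ratio of chromosome 8 over chromosome 13 moved from -2.04 to -2.30 for Mir27 and from 3.24 to 2.58 for Mir24. It kept its direction in each. For Mir24 the length of Mir24-1 was used, although the counts were taken over the longer Mir3074-1, so that move is overstated. The share of the 5 genes in all counts was 3.38% with both strands counted and 1.97% over all reads, because those denominators are larger. With total-count scaling the pup ratio changed sign for Mir23a (-0.083), Mir24-2 (-0.059) and Mir23b (-0.011), and Mir27a (0.016) no longer passed the threshold; DESeq2 size factors changed no sign or call of the 5. Leaving out 1 replicate gave log2 ratios from 0.25 to 0.32 for Mir23, from -2.09 to -2.0 for Mir27 and from 3.12 to 3.35 for Mir24, shares of chromosome 8 from 52.5% to 53.9% and shares of all counts from 3.73% to 3.84%. With 2 libraries such values always lie within 1 SD of the mean. Genes called over the whole table ran from 13 to 22 around 19, and 0 of the 5 under each setting. Both-strand counts could not be used for Mir24-1, which had no row. No paired analysis was possible because the labels hold a single group and so no conditions to pair; the cluster ratios are themselves taken within each pup. Each p measures counting error between 2 libraries.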
